A study of Homo sapiens with 10 samples.

Results

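H3K18ac, the acetylated form of lysine 18 on histone H3, was compared between C4-2BER and C4-2B cells, each measured by chromatin immunoprecipitation followed by sequencing. C4-2B is a human prostate adenocarcinoma line grown from LNCaP cells. C4-2BER is its descendant kept in continuous enzalutamide, an antiandrogen, and the labels call it neuroendocrine-like. Both lines were fixed with DSG and formaldehyde, and each gave 2 H3K18ac libraries, 2 H3K27ac libraries and 1 input library. C4-2BER stands for 1 resistant line made from 1 parent, and it was kept in the drug while the parent was not, so resistance, the drug and drift in culture cannot be told apart. The authors pooled the 2 libraries of a line before they called peaks. Each line therefore has 1 list, and no difference between the lines below could be tested against the spread between replicates. The 2 H3K18ac lists were joined wherever peaks overlapped by 1 bp or more, which gave 247646 regions out of 337523 regions when H3K27ac is counted as well. Of the H3K18ac regions, 64656 (26.1%) held peaks of C4-2BER alone, 57629 (23.3%) held peaks of C4-2B alone and 125361 held peaks of both.

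Acetyl groups are put on lysine 18 mainly by the paired acetyltransferases p300 and CBP (EP300 and CREBBP), and the deacetylase SIRT7 is known for taking them off. The mark lies at promoters and enhancers of active genes, usually beside H3K27ac, which the same acetyltransferases deposit. In prostate cells, luminal genes under the pioneer factor FOXA1 carry such acetylation, and neuroendocrine tumours use a different set of regulators and secretory genes.

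The sequence of 1 region is shown because it had the highest fold enrichment among C4-2B-only regions. Fold is the authors' ratio of signal in a peak over local background, averaged along the peak. It is the central 300 bases on the plus strand of hg38, with capitals for the E-box CAGCTG, 1 of the motifs searched near the end.
chr6:74755178-74755477, C4-2B only, fold 10.3, intergenic: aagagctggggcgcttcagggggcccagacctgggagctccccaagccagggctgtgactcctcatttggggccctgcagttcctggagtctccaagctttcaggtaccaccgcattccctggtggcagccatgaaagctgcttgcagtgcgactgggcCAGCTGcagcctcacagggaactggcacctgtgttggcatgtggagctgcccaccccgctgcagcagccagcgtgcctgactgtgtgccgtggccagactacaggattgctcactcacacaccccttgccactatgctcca
H3K27ac behaved alike there: C4-2B also had an H3K27ac peak at this region, with a fold of 13.8, and C4-2BER had none. No base of the window belonged to words of 14 bases that occur at least 200 times on chromosome 21.

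The 2 lists were close in number of peaks and differed more in extent. C4-2BER had 197948 peaks over 320.7 Mb with a median fold of 2.55, and C4-2B had 198451 peaks over 293.2 Mb with a median fold of 2.74. Every peak had a -log10 q-value of at least 1.00, with a median of 2.83 for C4-2BER and 2.60 for C4-2B. The number of fragments behind either list is unknown. At equal fold C4-2BER peaks had the higher -log10 q-value: at a fold of 2.5 to 3 the median was 3.34 over 47824 C4-2BER peaks and 2.48 over 70831 C4-2B peaks, with median widths of 839 and 678 bp. The part of this gap in the classes was not tested. The order of the 2 line-only counts hung on the measure used to keep peaks. Among the highest-fold peaks of each list up to 100 Mb there were 6088 C4-2BER-only and 10989 C4-2B-only regions, and when only peaks with a -log10 q-value of 5 or more were kept there were 22238 and 7943.

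Line-only regions were narrow and weak, and shared regions were wide. Shared regions join peaks of both lines, and a wider peak meets the 1 bp rule more easily. The rule itself therefore favours wider shared regions. Single peaks had a median width of 936 bp in C4-2BER and 788 bp in C4-2B. The median width was 519 bp in C4-2BER-only regions (95% interval 513 to 525), 462 bp in C4-2B-only regions (456 to 468) and 1563 bp in shared regions (1553 to 1573). Such intervals reflect variation among regions and not between cultures. Among regions of 45 to 50% GC the order turned, with a median of 498 bp for the C4-2BER-only class and 668 bp for the C4-2B-only class. The median fold of C4-2BER-only regions was 2.40 and that of C4-2B-only regions 2.51. Among regions of 5 kb or more, 98.4% were shared. Only 49 of them were C4-2BER only and 197 were C4-2B only, and the widest line-only region spanned 9585 bp in C4-2BER and 21663 bp in C4-2B.

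Much of the line-specific acetylation lay inside regions that both lines shared. Base by base, 197.8 Mb were covered in both lines, 122.8 Mb in C4-2BER alone and 95.4 Mb in C4-2B alone. Edges of shared regions made up 61.6% of the C4-2BER-only bases and 56.7% of the C4-2B-only bases. Here and below, edges include the gaps between peaks of the other line inside a shared region. The shared regions were covered at least 2 times as far in C4-2BER at 18.8% and at least 2 times as far in C4-2B at 8.86%. They were split into more peaks in C4-2B at 8.76% and in C4-2BER at 3.92%. The fold differed by 2 times or more at 290 shared regions towards C4-2BER and at 578 towards C4-2B, out of 125361. These counts cannot show whether height moved less than extent, because a shared region needs a called peak of each line. The lowest fold of any called peak was 1.56 for C4-2BER, against 1.74 for C4-2B. Shared regions had median folds of only 2.72 (C4-2BER) and 2.92 (C4-2B). From such a median, a fold 2 times lower would lie under both minima.

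The HOXA cluster, whose homeobox genes set position along the body axis, shows differences of extent on chromosome 7. All 11 genes had a peak touching a promoter window in both lines, as had 16702 of 20033 protein-coding genes. Even so, the gene body of HOXA5 carried only an 872 bp peak of C4-2B, and the TSS of HOXA2 lay in a peak of C4-2B alone. One C4-2BER peak of 31492 bp ran unbroken over the stretch from HOXA9 to HOXA11, where C4-2B had 4 peaks covering 26708 bp. HOXA5 had a promoter fold of 6.36 in C4-2BER against 2.54 in C4-2B, the value of a 12742 bp C4-2BER peak and a 1927 bp C4-2B peak that both reach into its promoter window from the HOXA6 side. HOXA4 went the other way, at 6.03 in C4-2BER against 11.4 in C4-2B. The HOXA genes lie so close that 7 of the 11 share the same 1021 bp of C4-2BER-only and 872 bp of C4-2B-only sequence, so they are not separate observations.

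C4-2BER-only regions lay further from transcription start sites (TSSs) than C4-2B-only regions. The median distance from a region's midpoint to the nearest TSS of a protein-coding or lncRNA gene was 17900 bp for C4-2BER only (95% interval 17669 to 18146), 12593 bp for C4-2B only (12388 to 12783) and 11271 bp for shared regions. A promoter window, 2000 bp before to 500 bp after a TSS, was touched by 7.23% of C4-2BER-only regions (4676, Wilson 95% interval 7.04 to 7.43), 12.3% of C4-2B-only regions (7078, 12.02 to 12.5) and 23.9% of shared regions. The number of C4-2BER-only regions over that of C4-2B-only regions, called the ratio from here on, was 0.60 within 1 kb of a TSS and 1.48 between 50 and 200 kb. C4-2BER-only regions had the lower promoter share under all 10 alternatives tried and the longer median distance under all 9. Among the regions of these classes that reached a fold of at least 4 the order in distance turned, as given further on.

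**Figure D1:**
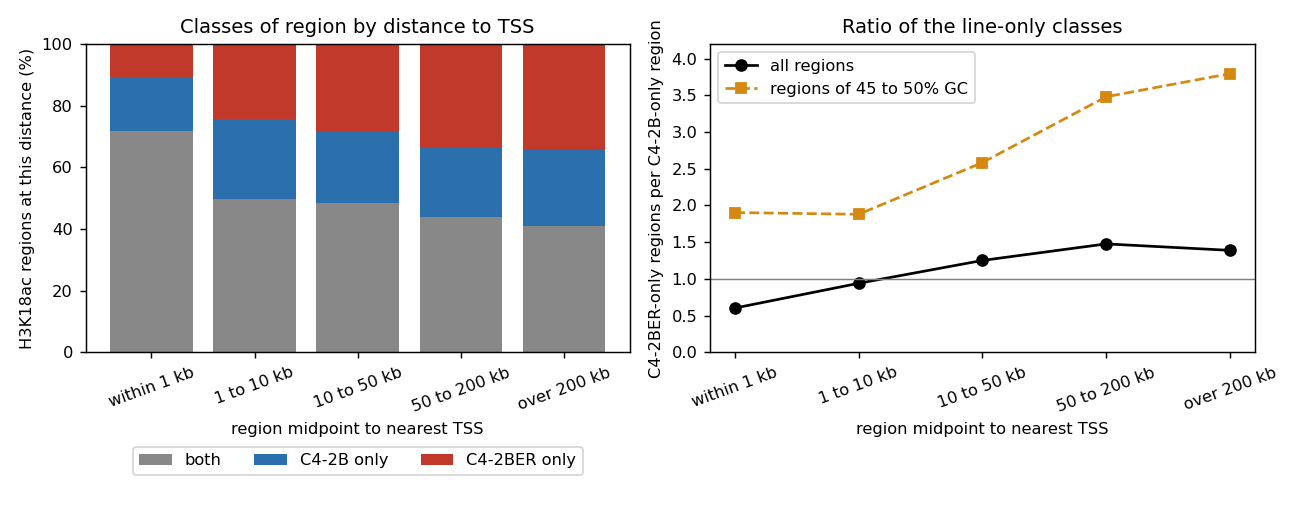
Left, the share of H3K18ac regions (%) that were shared, C4-2B only or C4-2BER only at 5 distances of the region midpoint from the nearest TSS; right, the ratio of C4-2BER-only to C4-2B-only counts at the same distances, for all regions and for those of 45 to 50% GC. Shared regions fall from 71.7% within 1 kb to 40.8% beyond 200 kb, and the ratio rises from 0.60 within 1 kb to 1.48 at 50 to 200 kb.

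Within genes, C4-2B-only regions leaned towards exons and the 3′ end, and C4-2BER-only regions towards introns near the 5′ end. Exons held the midpoint of 3.98% of C4-2B-only regions and 1.29% of C4-2BER-only regions, a ratio of 0.36. In the intron nearest the promoter the ratio was 1.35, in other introns 1.07 and between genes 1.27. When each gene body was cut into 10 equal parts from its start to its end, the ratio was 1.11 in part 1, 1.18 in part 2 and fell to 0.72 in part 10. Long genes carried more of the C4-2BER-only class. The ratio was 0.51 in genes under 50 kb and 1.36 in genes of 200 to 500 kb.

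The classes differed in GC content. The median GC of the central 300 bp was 48.7% in C4-2BER-only, 54.0% in C4-2B-only and 52.0% in shared regions. At 60% GC or more, 281 regions were C4-2BER only and 9000 were C4-2B only, while 18923 were shared. Below 40% GC the count was 10146 against 4169. The part of GC content in the differences between the classes was not tested. Within the band of 45 to 50% GC the ratio was higher throughout, and it went from 1.90 within 1 kb of a TSS to 3.48 at 50 to 200 kb, from 2.29 in part 2 of the gene body to 1.68 in part 10, and from 1.18 in genes under 50 kb to 3.08 in genes of 500 kb or more. In that band exons had a ratio of 1.36 against 2.17 in introns beyond the one nearest the promoter, so in it C4-2BER-only regions outnumbered C4-2B-only regions in exons too.

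**Figure D2:**
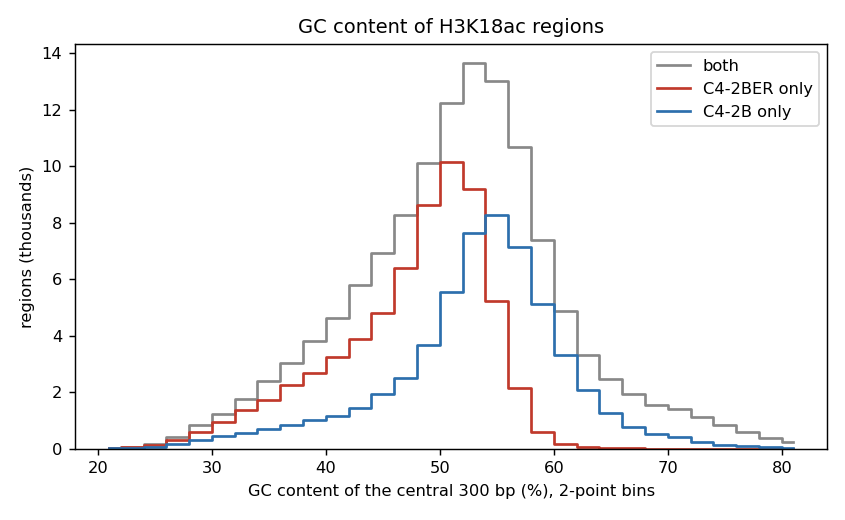
Number of H3K18ac regions by GC content of the central 300 bp (%), in bins of 2 points, for shared, C4-2BER-only and C4-2B-only regions. The C4-2BER-only curve ends near 60% GC, where 281 regions remain, and the C4-2B-only curve runs on with 9000.

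Both line-only classes came in clusters along the chromosomes. A C4-2BER-only region was followed by another of its class in 37.1% of cases (Wilson 95% interval 36.7 to 37.5), beside a share of 26.1% of all regions, and a C4-2B-only region in 34.4% (34.0 to 34.7), beside 23.3%. In bins of 1 Mb the variance of the count was 12.2 times its mean for C4-2BER only, 11.7 times for C4-2B only and 21.9 times for shared regions. Of 2590 bins with at least 20 regions, 424 held at least 3 times as many C4-2BER-only as C4-2B-only regions, and 327 held the reverse.

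The chromosomes differed in the same manner. Chromosome 19, the most gene-dense, had 684 C4-2BER-only and 2214 C4-2B-only regions, a ratio of 0.31. Chromosome 22 followed at 0.52, and chromosomes 16, 17 and 20 lay between 0.74 and 0.78. Among chromosomes 1 to 22 and X, chromosomes 3 and 5 stood at the other end with 1.56 and 1.57. The ratio also varied along chromosome arms: within 2 Mb of a chromosome end the counts were 1025 against 3220, a ratio of 0.32, and beyond 10 Mb they were 56735 against 44245, a ratio of 1.28. In regions of 45 to 50% GC the same ratio rose from 0.80 within 2 Mb of an end to 2.73 beyond 10 Mb.

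Some single bins held many regions of 1 line-only class and few of the other, beside a varying number of shared regions. The bins are those with the widest gap between the classes. On chr3:3000001-4000000, which holds the TSSs of CRBN, the receptor of thalidomide-type drugs, IL5RA, LRRN1 and TRNT1, there were 102 C4-2BER-only regions, 3 C4-2B-only regions and 22 shared ones. On chr1:57000001-58000000, inside DAB1, an adaptor of reelin signalling in migrating neurons, the counts were 92, 1 and 14. On chr9:84000001-85000000, with NTRK2, the receptor of the neurotrophin BDNF, they were 98, 11 and 48. On chr19:31000001-32000000, around the transcription factor TSHZ3, they were 85, 1 and 63, against the lean of that chromosome as a whole. H3K27ac peaks in these 4 bins numbered 26, 14, 25 and 28 in C4-2BER and 10, 1, 11 and 5 in C4-2B. The bins led by C4-2B were chr20:61000001-62000000 at CDH4, the cadherin of the retina, with 4 C4-2BER-only and 119 C4-2B-only regions, chr4:8000001-9000000 with 2 and 94, and chr22:49000001-50000000 with 4 and 95, beside 38, 67 and 63 shared regions. Here H3K27ac peaks numbered 7, 25 and 37 in C4-2BER and 14, 47 and 45 in C4-2B. The median GC of the regions was 48.7 to 50% in the 4 bins of C4-2BER and 57.3 to 58.3% in the 3 bins of C4-2B.

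**Figure D3:**
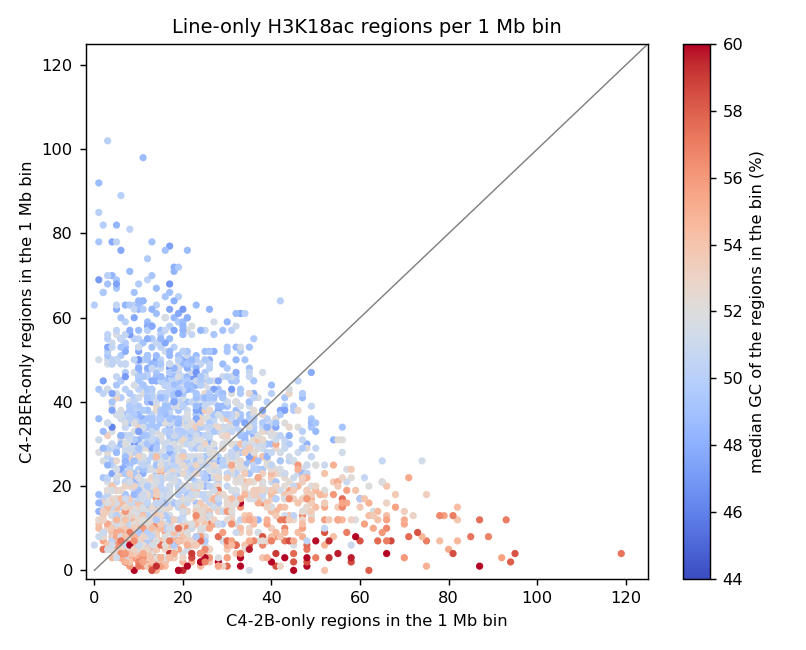
C4-2BER-only regions against C4-2B-only regions in each 1 Mb bin with at least 20 H3K18ac regions (2590 bins); colour is the median GC content of the bin's regions and the grey line marks equal counts. Most bins lie between the axes, with 424 at 3 times or more towards C4-2BER (up to 102 C4-2BER-only regions) and 327 towards C4-2B (up to 119 C4-2B-only regions).

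Runs of line-only regions with no shared region between them were mostly short. Of the C4-2BER-only regions 11.4% sat in runs of 5 or more, and of the C4-2B-only regions 9.75%. By span, the 3 longest C4-2BER-only runs had as nearest protein-coding genes C4orf33 on chromosome 4 (5 regions over 963327 bp, 1494485 bp from the gene), TGIF2LX on the X chromosome (8 over 914005 bp, 451895 bp away) and GLRA2, a glycine receptor subunit, on the X chromosome (3 over 743053 bp, 48551 bp away). The 3 longest of C4-2B had WSB1, ZNF722 and ZNF33B as nearest genes and stretched over 2774115 to 3930930 bp with 4 to 10 regions. These lay 1634576 to 2620286 bp from those genes. Each of the 6 runs is a sparsely marked stretch. The 3 of C4-2B were chr17:22708363-26639292, chr7:60955577-63772969 and chr10:39508138-42282252. A span counts every base between the first and last region, including any sequence where reads cannot be placed. The part of such sequence in these spans was not tested. Runs with the most regions, chosen after their values were seen, were denser: 22 C4-2BER-only regions lay within 174736 bp, 138802 bp from CRBN, 21 within 190546 bp in DAB1, and 27 C4-2B-only regions within 194799 bp, 146910 bp from GRIK3, a kainate receptor subunit.

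Genes were ranked by the bases of line-only regions within 50 kb of their canonical TSS, leaving out shared regions. Of 20033 protein-coding genes, 7947 (39.7%) had more C4-2BER-only bases and 10951 (54.7%) more C4-2B-only bases. This order depended on processing: under a -log10 q-value limit of 5 it was 8754 against 3365, with the edges of shared regions counted it was 10218 against 9494, and with regions of 45 to 50% GC alone it was 6413 against 4601. More C4-2BER-only bases were found at 56.7% of genes whose 100 kb window had 40 to 45% GC and at 9.05% of those with 50% or more. The median gene had 1007 C4-2BER-only and 1486 C4-2B-only bases, and at least 10 kb was reached by 128 genes for C4-2BER and 806 for C4-2B.

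Among the 12 genes with most C4-2BER-only sequence were genes of transporters, enzymes and secreted proteins, and 11 are described. MINDY4B, of a family of deubiquitinases, led with 21893 C4-2BER-only bases in 14 regions against 1225 in C4-2B. IL36A, a cytokine of the interleukin-1 family, had 18577 in 14 regions against 0, and 1 of these had a fold of 5.10 and lay 7843 bp from its TSS. PDPN, the mucin-type glycoprotein podoplanin, had 18660 against 3068, and VTCN1, the immune checkpoint ligand B7-H4, 16962 against 437. The membrane transporters ABCA1, which exports cholesterol, and SLC39A11, which carries zinc, had 16977 against 925 and 16161 against 1882. NUCB2, the precursor of nesfatin, had 17891 against 1334. KCNG1, a potassium channel subunit, had 16292 against 1547. TEX48, the phosphatase CPPED1 and the aldo-keto reductase AKR1B15 followed with 15968, 15901 and 15795 against 1453, 0 and 0.

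Most of these genes still had the higher promoter fold in C4-2B. Of the 12, 4 (33.3%) had the higher promoter fold in C4-2BER, beside 14.4% of all protein-coding genes, and 7 had it in C4-2B, while IL36A had no promoter peak in either line. NUCB2 for instance had 6.74 in C4-2BER against 9.84 in C4-2B, and KCNG1 6.84 and 10.8. Only MINDY4B had a promoter peak in C4-2BER alone, at 3.04. H3K27ac, which had no part in the ranking, showed more C4-2BER-only than C4-2B-only bases around all 12, from 2302 against 0 at CPPED1 to 7743 against 0 at NUCB2. Over all protein-coding genes this held for 48.2%.

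SLC6A3, the dopamine transporter, had the most C4-2B-only bases, 38494 in 16 regions against 0 in C4-2BER. Its promoter had a peak in C4-2B alone, with a fold of 3.08. GPR55, a receptor for lysophosphatidylinositol, had 30633 against 431, with a promoter peak in C4-2B alone at 2.73. ECEL1, an endopeptidase of neurons, had 26445 against 0 and likewise a promoter peak in C4-2B alone at 2.38. Among genes of the cytoskeleton and transport, KIF1A, a kinesin of axonal transport, had 23514 against 3570, DNAH1, a dynein heavy chain of cilia, 23659 against 0, BAIAP2L2, a membrane-bending protein, 28234 against 233, SEC16A, of exit sites of the endoplasmic reticulum, 25806 against 0, and AP2A2, a clathrin adaptor subunit, 24117 against 2086. UNKL had 28821 against 0, AJAP1, a protein of adherens junctions, 27599 against 599, DCAF15, a ubiquitin ligase receptor, 26882 against 1071 and the transcription factor RFX1 25114 against 1187. DCAF15 and RFX1 lie within 54 kb of each other and share part of their windows.

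H3K27ac was mixed at the C4-2B genes. At 10 of the 12 there were more C4-2B-only than C4-2BER-only H3K27ac bases, with 12188 against 1254 at SLC6A3 and 14232 against 0 at UNKL. GPR55 had 0 of either, and KIF1A had 3026 against 4208. Over all protein-coding genes 31.0% had more C4-2B-only H3K27ac bases. The windows of the 12 C4-2B genes had 48.7 to 59.4% GC and those of the 12 C4-2BER genes 41.1 to 47.9%. Under a -log10 q-value limit of 5, the difference turned towards C4-2BER at SLC6A3 (by 3904 bp), BAIAP2L2 (893) and AP2A2 (1241), and it was 0 at GPR55, UNKL, ECEL1, SEC16A and DNAH1, so 8 of the 12 C4-2B genes lost their lead. The 12 C4-2BER genes kept their direction under that limit, although MINDY4B fell to 2813 bp. C4-2BER peaks had the higher -log10 q-value at equal fold, as given above. With a fold of at least 4 the difference was 0 at MINDY4B, PDPN, ABCA1, VTCN1, KCNG1, SLC39A11 and TEX48 of the C4-2BER genes. It was also 0 at the C4-2B genes SLC6A3, BAIAP2L2, DCAF15, ECEL1, SEC16A, RFX1, AP2A2 and DNAH1. Without regions that hold a word of Alu repeats, described further on, the difference turned towards C4-2B at NUCB2 (a C4-2BER minus C4-2B difference of -472 bp).

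**Figure D4:**
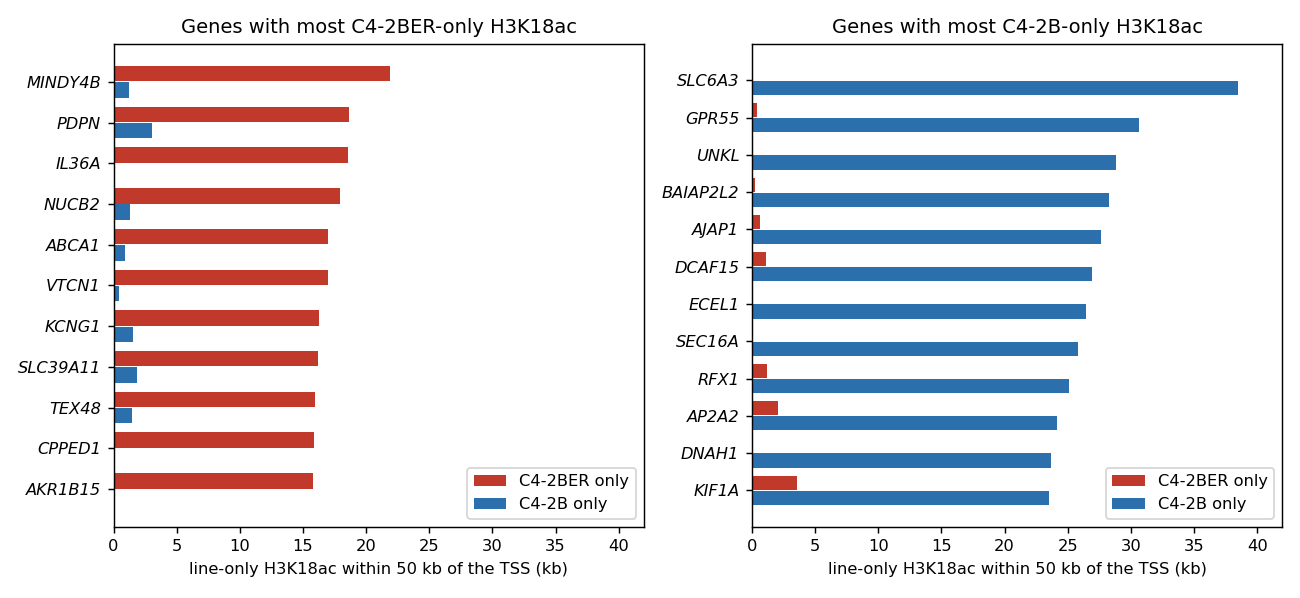
Line-only H3K18ac (kb) within 50 kb of the TSS of 11 of the 12 protein-coding genes with most C4-2BER-only sequence (left) and the 12 with most C4-2B-only sequence (right); red bars are C4-2BER only and blue bars C4-2B only. The leading genes reach 21893 bp (MINDY4B) and 38494 bp (SLC6A3), with at most 3068 bp and 3570 bp of the opposite class beside them.

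The labelled cell types were compared with their markers at promoters, taking the highest fold over all TSSs of a gene. All 20 luminal genes had a promoter peak in both lines, beside 16702 of 20033 protein-coding genes. KLK3, the gene of prostate-specific antigen, had a fold of 7.28 in C4-2BER against 7.06 in C4-2B. FOXA1 had 8.23 and 14.0, TRPM8 5.10 and 8.52, and ACP3, prostatic acid phosphatase, 6.75 and 4.65. The median log2 ratio of C4-2BER over C4-2B was -0.23 for the 20 genes, beside -0.33 for the 16702 promoters with a peak in both lines, and 5 of the 20 were higher in C4-2BER, beside 2516 of the 16702. Around them, 13 had more C4-2BER-only bases and 4 more C4-2B-only bases, beside 39.7% and 54.7% of all protein-coding genes. ACP3 had 7703 against 0, TMPRSS2, an androgen-induced protease, 4690 against 0, and FKBP5, an androgen-induced chaperone, 0 against 5798.

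Neuroendocrine promoters were weakly marked in both lines at their median, though not at every gene. With C4-2BER first, the median folds of the secretory genes were 2.86 and 3.60, with 0 for a missing peak. Those of the regulators were 3.20 and 4.19, beside 5.19 and 6.45 over all protein-coding genes. Some members lay above the latter in both lines: HES6 (8.27 and 8.77), RAB3A (6.64 and 8.74), VGF (6.03 and 6.82) and SOX11 (5.91 and 7.93). The median log2 ratio was -0.21 at the secretory genes and -0.28 at the regulators with peaks in both lines, beside -0.33 over all such promoters. Of the 20 secretory genes 11 (55%) had more C4-2BER-only and 8 more C4-2B-only bases around them, and of the 17 regulators 5 (29.4%) and 10. Over all protein-coding genes 39.7% had more C4-2BER-only and 54.7% more C4-2B-only bases. Over all 20033 protein-coding genes, 16702 had a promoter peak in both lines and 2205 in neither. Of 20 secretory genes 16 had a promoter peak in both, 2 in neither (SCG2 and STMN2) and 2 in C4-2B alone. Those were CHGB, a granin of secretory granules (2.67), and PCSK1, a prohormone convertase (2.48). A promoter peak in C4-2BER alone was found at 0 of them, beside 359 (1.79%) of all protein-coding genes, and in C4-2B alone at 767 (3.83%). CHGA, chromogranin A, had 2.29 in C4-2BER and 4.31 in C4-2B, SYP, synaptophysin, 3.30 and 3.88, and SNAP25, of the synaptic fusion machinery, 4.08 and 3.55. TUBB3, neuronal tubulin, had 5.72 and 5.00 with 20262 C4-2B-only bases around it and 0 of C4-2BER. Of 17 neuroendocrine regulators 15 had promoter peaks in both lines, and NEUROD1 (2.43) and the splicing factor SRRM4 (2.44) in C4-2B alone. SOX2 had a fold of 2.81 against 4.11 and PAX5 3.2 against 4.19. Over both lists, 0 of 37 promoters carried a peak of C4-2BER alone. Lists of this size are too short to tell 0 from the 1.79% over all protein-coding genes.

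Other lists served as background. The median log2 ratio was -0.13 at 18 promoters of neuronal adhesion and axon guidance genes, -0.31 at 12 genes that write, erase or read H3K18 acetylation and -0.44 at 12 housekeeping genes. EP300 had 10.1 in C4-2BER and 13.9 in C4-2B, CREBBP 11.1 and 12.6, SIRT7 7.02 and 7.17, and KAT2A, the acetyltransferase GCN5, 9.27 and 5.99. A ratio of 2 or more towards C4-2BER was found at 25 (0.15%) of all shared promoters and towards C4-2B at 284 (1.7%). Among the list members, HOXA5 passed it towards C4-2BER, and SNAI2, a factor of epithelial-mesenchymal transition (2.95 against 7.36), towards C4-2B. H3K27ac at the promoter of SNAI2 was 3.09 in C4-2BER against 14.9 in C4-2B. Of 20 markers of blood, stroma and liver 9 had peaks in both lines, beside 16702 of 20033 protein-coding genes. Another 8, among them PTPRC, HBB and ALB, had peaks in neither, beside 2205 of 20033. COL3A1 (3.25) and DCN (2.68), both of fibroblasts, had a promoter peak in C4-2BER alone and CD79A (2.30), of B cells, in C4-2B alone. The other stromal genes of the list were mixed. COL1A1 had 4.57 in C4-2BER against 6.08 in C4-2B and COL1A2 2.13 against 2.76, and LUM had no promoter peak in either line. THY1 (5.38 against 3.89) and PDGFRB (6.00 against 5.65) had the higher fold in C4-2BER.

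H3K27ac went with the strength of the line-only regions. C4-2BER-only regions overlapped a C4-2BER H3K27ac peak in 13.5% (Wilson 95% interval 13.2 to 13.7) and a C4-2B H3K27ac peak in 2.33% (2.21 to 2.45). For C4-2B-only regions the share was 9.48% in C4-2B (9.24 to 9.72) and 3.97% in C4-2BER (3.82 to 4.14). Shared regions reached 44.3% and 40.7%. Below a fold of 2.5, 5.58% of the 39054 C4-2BER-only regions and 8.52% of the 28346 C4-2B-only regions had H3K27ac of their own line. At a fold of 3 to 4 the shares were 43.0% and 16.5%, and at a fold of 5 or more 98.3% of 175 and 95.3% of 64. H3K27ac of the other line rose with fold at C4-2BER-only regions, from 1.44% below a fold of 2.5 to 13.1% at 5 or more, and at C4-2B-only regions it went from 5.32% through 1.84% at a fold of 3 to 4 to 6.25%. The marks were called on separate libraries of the same lines.

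**Figure D5:**
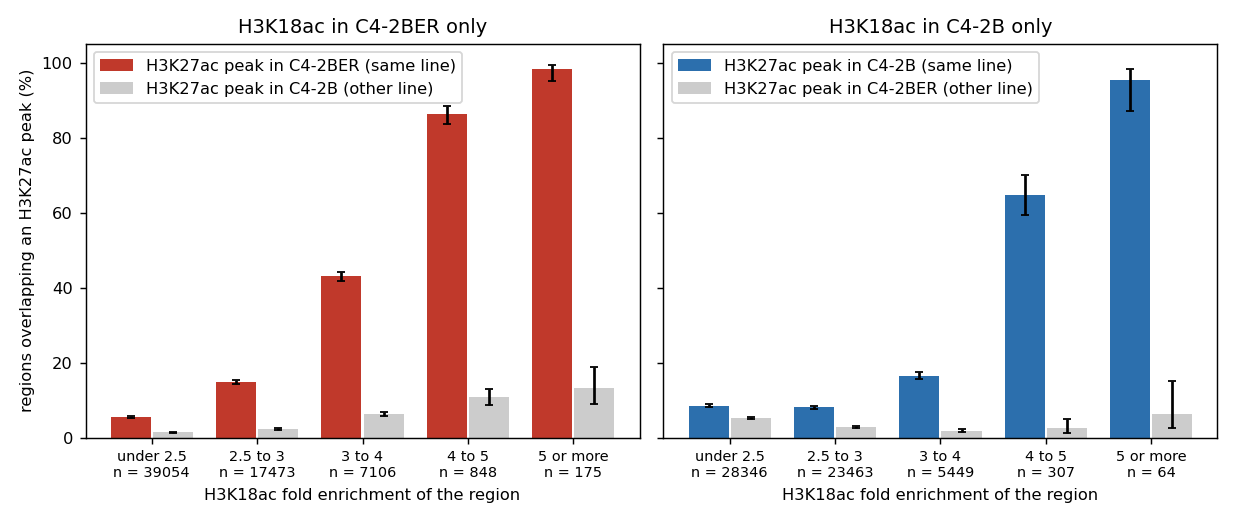
Share of C4-2BER-only (left) and C4-2B-only (right) H3K18ac regions that overlap an H3K27ac peak of the same line (coloured) or of the other line (grey), by H3K18ac fold enrichment; bars are percentages, error bars Wilson 95% intervals and n the number of regions. The same-line share rises from 5.58% to 98.3% in C4-2BER and from 8.52% to 95.3% in C4-2B.

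Strong regions without a peak of any strength in the other line were rare. A fold of at least 4 was reached by 1023 C4-2BER-only and 371 C4-2B-only regions, and a -log10 q-value of 5 or more by 7608 and 1092. The full lists held 26751 C4-2BER and 28968 C4-2B peaks with a fold of at least 4. When only such peaks were kept before merging, 6587 and 8180 regions were line-only, in the opposite order. The 1023 and 371 regions lay further out than the classes they belong to, at a median of 22279 bp from a TSS in C4-2BER and 24050 bp in C4-2B. Promoter overlap at a fold of 4 to 5 was 6.96% in C4-2BER against 8.14% in C4-2B, and at a fold of 5 or more the order turned, at 9.71% of 175 regions against 6.25% of 64.

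A repeat word was more frequent at the centre of line-only than of shared regions, though not over their whole length. The word GCTGGGATTACAGG, which Alu elements, the commonest short repeats of primate genomes, carry, was the most frequent 14-base word of mixed composition on chromosome 21, counted there 7240 times on both strands, and 5.65% of all 300 bp windows of the genome held it. It lay in the central 300 bp of 19.3% of C4-2BER-only, 20.95% of C4-2B-only and 13.1% of shared regions. Anywhere in the region it was found in 36.3%, 32.3% and 48.2%, with shared regions the widest. At a fold of 4 or more the shares were 19.9% in C4-2BER only (17.6 to 22.5), 31.3% in C4-2B only (26.8 to 36.2) and 9.64% and 8.99% in shared regions that passed that fold in C4-2BER and in C4-2B. Between 50 and 55% GC the first 2 of these shares were 31.8% and 40.6% and the latter 23.5% and 23.3%. Reads in recent repeats are hard to place, and the authors filtered them by mapping quality. The part of mapping in these regions was not tested.

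Short motifs were searched in the central 300 bp on both strands. They are given over all regions and within 50 to 60% GC, with other bands for the AP-1 and forkhead motifs. The GC box (GGGCGG) was found in 6.59% of C4-2BER-only, 17.1% of C4-2B-only and 13.8% of all regions, and between 50 and 60% GC in 10.6%, 17.9% and 14.7%. The AP-1 motif (TGANTCA) was found in 8.83%, 6.19% and 7.58%, and in that band in 7.51%, 5.75% and 6.92%. The forkhead motif (TGTTTAC), read by FOXA1, was found in 3.73%, 3.24% and 4.38%, so C4-2BER-only regions held it more often than C4-2B-only regions. Between 50 and 60% GC this order turned, and both line-only classes lay below shared regions: 2.33% in C4-2BER only, 3.57% in C4-2B only and 6.42% in shared regions, beside 4.66% of all. It did not turn in the other bands: 6.82% against 6.28% under 40% GC, 4.01% against 3.03% at 40 to 50% and 1.42% against 0.88% at 60% or more. The AP-1 motif was at 10.0% in both line-only classes under 40% GC, and at 3.20% in C4-2BER only against 3.84% in C4-2B only at 60% or more. Further motifs, namely the E-box CAGCTG, ETS (CCGGAA), octamer (ATGCAAAT) and PBX-HOX (TGATTNAT), were searched between 50 and 60% GC too. They were at 16.9%, 2.88%, 0.57% and 1.26% in C4-2BER-only regions of that band and at 18.6%, 3.47%, 0.56% and 1.15% in C4-2B-only regions.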

How the data were processed

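Chromatin from C4-2BER and C4-2B cells was immunoprecipitated for H3K18ac or H3K27ac, with 2 libraries per line and mark. The authors trimmed reads (Trimmomatic 0.33, named in the processing notes alone), aligned them to hg38 (Bowtie2, for which the processing notes and the methods give different versions), removed blacklisted, poorly mapped and duplicate reads (Picard), merged the replicates and called broad peaks with macs2, as the methods and the submitters' processing notes state. Whether the input served as control in peak calling is not given in the sources used here. The deposited lists give for each peak a fold enrichment, the ratio of signal over local background, and a significance value. Of the latter only the deposited -log10 q-value was used. No list was rescaled.

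Peaks of the 24 chromosomes, which held all of them, were merged at 1 bp of overlap and classed by line. TSSs, exons and genes came from GENCODE release 44 (20033 protein-coding genes), and distances run from region midpoints. Shares carry Wilson 95% intervals, medians order-statistic intervals. With 1 pooled list per line there was no test, so no p-value is given. The scripts ran in Python 3.11.15 with pandas 2.3.3, scipy 1.17.1 and pysam 0.24.0 and were tested on simulated peaks of known class.

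The regions, gene lists and rules were chosen with earlier results of these data known. The named genes are the 12 per direction with most line-only bases within 50 kb of the canonical TSS (passing over a gene within 50 kb of a higher-ranked one), the gene nearest to each of the 3 longest runs by span, and list members with a promoter peak in 1 line only, a 2 times different promoter fold or 10 kb of line-only bases. Other genes are named as examples of their list. A few genes, motifs and sequences that these rules select are not reported here. The H3K27ac lists were used as a readout that the classes did not use. Alternatives are given at the end.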

Additional observations from a re-analysis of the deposited data

How the results depend on the processing

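Promoter share and distance to TSSs kept the same order of the lines under every alternative tried, while the counts of line-only regions and genes did not. The order did not hold among the strongest regions of the main classes. There distance turned at a fold of at least 4 and promoter share at a fold of 5 or more, as given above. In each pair below the value for C4-2BER-only regions comes before that for C4-2B-only regions, and the cause of each shift was not tested beyond the choice itself. Under a -log10 q-value limit of 5 there were 22238 and 7943 line-only regions, 11.7% and 15.03% at promoters, at a median of 16073.5 and 14668 bp from a TSS and 1039.5 and 750.0 bp wide, and 3365 genes had more C4-2B-only bases. With a fold of at least 4 the values were 6587 and 8180 regions, 15.7% and 23.3%, 15094 and 11525 bp, 1336 and 1017 bp, and 3694 and 5386 genes. With the highest-fold peaks up to 100 Mb they were 6088 and 10989 regions, 14.3% and 21.5%, 15377.5 and 12158 bp, 1210.5 and 982 bp, and 3090 and 6733 genes. With peaks of at least 500 bp, C4-2B-only regions numbered 34555, the promoter shares were 8.81% and 16.0%, the distances 16409 and 10798 bp and the widths 979 and 929 bp. An overlap of at least 50% of the shorter peak gave 7.54% at promoters and 17341 bp for C4-2BER only, with widths of 552 and 497 bp. Merging peaks within 1000 bp gave 7.02% and 11.8%, 18583 and 13229.5 bp, and a width of 449 bp for C4-2B only. With canonical TSSs alone the promoter shares were 2.66% and 4.25% and the distances 33291.5 and 24728 bp, and with 2000 bp on both sides of a TSS the shares were 9.96% and 16.0%. For gene counts, windows of 25 kb and 100 kb, the gene body and the edges of shared regions moved neither count by more than 1.5 times, although with the edges C4-2BER led with 10218 genes against 9494. Both of the following were chosen after seeing the data. Regions of 45 to 50% GC alone gave 17525 and 7239 regions, 9.75% at promoters for C4-2B only, 18336 and 12377 bp, widths of 498 and 668 bp and 4601 genes with more C4-2B-only bases. Leaving out regions with the Alu word anywhere in them gave 41198 C4-2BER-only regions, 13.6% at promoters for C4-2B only, 19035.5 bp for C4-2BER only and widths of 459 and 437 bp.

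Of the 24 genes named for their line-only bases, the C4-2BER minus C4-2B difference changed sign at SLC6A3 (3904 bp), BAIAP2L2 (893 bp) and AP2A2 (1241 bp) under that q-value limit, at UNKL (2448 bp) and KIF1A (2595 bp) with a fold of at least 4, at ABCA1 (-1384 bp) with the highest-fold peaks up to 100 Mb, at AJAP1 (599 bp) in regions of 45 to 50% GC and at NUCB2 (-472 bp) without the Alu word. No line-only bases, or equal bases of both, were left at 15 of the 24 with a fold of at least 4, at 13 with the highest-fold peaks, at 6 in the GC band and at 5 under the q-value limit. No paired analysis was possible because each list pools the 2 libraries of a line, and for the same reason no library could be left out in turn. The lists give no fragment counts, so their depth is unknown and intervals cover counting or spread over regions only. A region missing from 1 list was not called there, which does not show that the mark is absent.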
